A study of Homo sapiens with 6 samples.

Results

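Chromatin accessibility was examined around 6 genes of a secreted-factor family and of a receptor family linked to it: FAM3B, FAM3C and FAM3D, and the formyl peptide receptor genes FPR1, FPR2 and FPR3. They were taken from a gene table of 38336 protein-coding and lncRNA genes. Peaks were assigned to a gene when they overlapped its GRCh38 span extended by 20 kb on either side, here called the gene window. All 6 genes were found. Counted once each, silenced replicates 1, 2 and 3 had 25, 27 and 14 peaks in these windows, and control replicates 1, 2 and 3 had 18, 14 and 21.

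FAM3 proteins are small secreted proteins described as cytokine-like. FAM3B is known from pancreatic islets, FAM3C from the epithelial-mesenchymal transition, and FAM3D from the gut, where it has been described as a ligand of FPR1 and FPR2. Formyl peptide receptors are G protein-coupled receptors best known from neutrophils and monocytes, where they detect bacterial formylated peptides and steer migration.

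The cells were NCI-H1703, an established line labelled as lung squamous cell carcinoma. ATAC-seq, in which a transposase cuts accessible DNA and leaves sequencing adapters, gave 3 libraries from cells with silenced DLGAP1-AS2, a long non-coding RNA, and 3 from control cells. The labels do not spell out the silencing reagent or a time, and nothing in them says that replicates came from separate cultures, so p-values measure only the spread between these libraries. In a bulk library a lower peak in every cell and a peak in fewer cells cannot be told apart.

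The lists held 91346 to 170882 peaks per library on the chromosomes. The number of reads is not given, so depth is unknown. A relative measure, the lowest background coverage implied by a list's heights and fold enrichments, was lowest in silenced replicate 3 (0.237) and highest in control replicate 2 (0.464). Peak height here means the authors' pileup, and a height of 2 was the lowest in 5 libraries but 3 in control replicate 2. In that library 2.46% of peaks were lower than 4, against 48.1% to 52.1% in the other 5. Marker genes were checked for a gene-end peak, meaning one whose midpoint lay at most 1 kb from either end of the span. Of 8 squamous markers, SOX2 had it in all 6 libraries, TP63 in 4, DSG3 in 2, and KRT5, KRT14 and PKP1 in 1 each. KRT6A and DSC3 had none. Of 6 mesenchymal markers, 4 (VIM, ZEB1, COL1A2 and FN1) had such a peak in all 6 libraries, as did NKX2-1, NAPSA and SFTPC of 5 adenocarcinoma and alveolar markers and KRT8 of 5 epithelial ones.

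The letters before the start sites separate the members. The RefSeq promoter table (GRCh38.p14) held FAM3C, FAM3D, FPR1 and FPR2. The 250 bases before the start are shown 5′ to 3′ for 1 start of each, because FAM3C alone had a peak over them in every library, and capitals mark CpG dinucleotides.
FAM3C (chr7:121396309-121396558, minus strand): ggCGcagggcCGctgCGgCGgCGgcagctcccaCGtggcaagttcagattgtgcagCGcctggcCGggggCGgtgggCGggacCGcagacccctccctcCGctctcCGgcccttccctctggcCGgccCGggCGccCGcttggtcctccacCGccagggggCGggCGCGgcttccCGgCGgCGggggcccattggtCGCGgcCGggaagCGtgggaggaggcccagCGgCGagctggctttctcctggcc
FAM3D (chr3:58666775-58667024, minus strand): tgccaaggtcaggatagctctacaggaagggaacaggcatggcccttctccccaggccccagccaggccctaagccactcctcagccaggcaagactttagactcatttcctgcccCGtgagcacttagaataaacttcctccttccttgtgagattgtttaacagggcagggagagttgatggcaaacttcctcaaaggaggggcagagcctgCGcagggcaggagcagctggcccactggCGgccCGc
FPR1 (chr19:51751879-51752128, minus strand): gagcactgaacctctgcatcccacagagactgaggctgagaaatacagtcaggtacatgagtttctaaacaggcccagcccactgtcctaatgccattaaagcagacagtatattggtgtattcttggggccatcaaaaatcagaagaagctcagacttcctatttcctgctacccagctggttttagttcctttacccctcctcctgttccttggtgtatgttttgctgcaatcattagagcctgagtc
FPR2 (chr19:51760930-51761179, plus strand): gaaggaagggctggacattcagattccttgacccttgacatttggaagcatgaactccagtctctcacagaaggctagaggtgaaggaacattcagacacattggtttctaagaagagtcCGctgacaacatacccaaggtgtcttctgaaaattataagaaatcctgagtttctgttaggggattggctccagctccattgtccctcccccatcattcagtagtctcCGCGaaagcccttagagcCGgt
The FAM3C stretch held 30 CpG, more than 84.4% of the 22198 promoters of protein-coding genes in the table. Its observed to expected CpG ratio was 0.782, above that of 59.0% of these promoters. FAM3D and FPR2 held 4 each, with ratios of 0.188 and 0.283, and FPR1 held 0. The other listed start of FPR2 (chr19:51763139-51763388) held 3 and had a ratio of 0.339. A peak overlapped the FAM3C stretch in 6 of 6 libraries, that of FPR1 in 1 of 6, and those of FAM3D and both FPR2 starts in 0 of 6. FAM3A, the family member outside the 6 genes, resembled FAM3C, with 30 CpG, a ratio of 0.815 and a peak in 6 of 6 libraries.

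**Figure D1:**
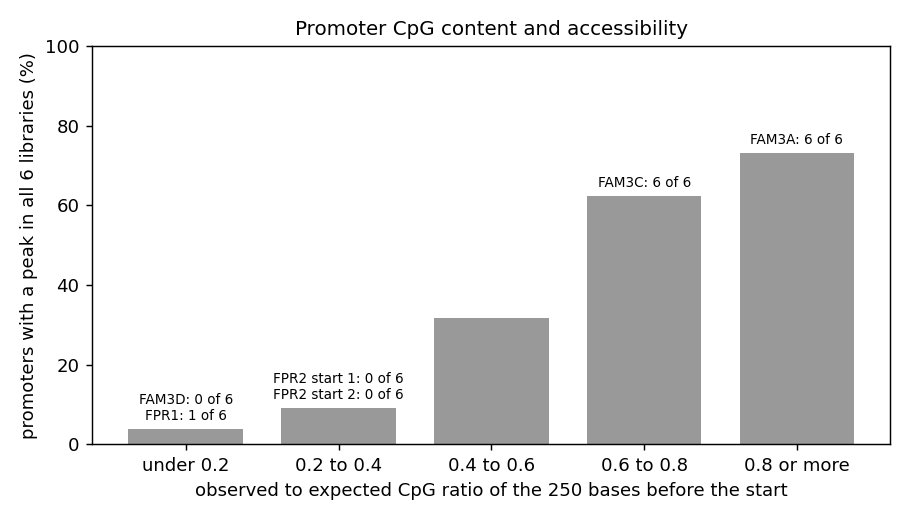
Bars give the share of promoters (250 bases before a start, 22198 in all) with an overlapping peak in all 6 libraries, in % on the vertical axis, by observed to expected CpG ratio on the horizontal axis. Text above a bar names the FAM3 and FPR promoters in that class with the number of libraries that called a peak; FAM3C and FAM3A stand in the CpG-rich classes and FAM3D, FPR1 and FPR2 in the CpG-poor ones.

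Over all promoters the share with a peak in all 6 libraries followed the same order. It was 3.81% of 3225 promoters with a ratio under 0.2, 9.07% of 3110 from 0.2 to 0.4, 31.6% of 2501 from 0.4 to 0.6, 62.4% of 4785 from 0.6 to 0.8 and 73.1% of 8577 at 0.8 or more. The FPR1, FPR2 and FAM3D promoters were thus without a peak in all 6 libraries like most promoters of their classes, and FAM3C had one like most of its class. Neighbouring promoters can share a peak, so these shares carry no test.

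Short motifs were searched on both strands of the same 250 bases. The SP motif GGGCGG occurred 3 times before FAM3C and was found in 53.7% of all promoters. The PU.1 motif GAGGAAGT, which contains the shorter AGGAAGT, occurred 2 times before FAM3D, and 2.23% of promoters held it. AGGAAGT alone occurred once before FPR1 (6.88% of promoters), and neither form before either FPR2 start. None of these 5 stretches held the AP-1 motif TGANTCA, present in 5.36% of promoters, or the TEAD motif GGAATG, present in 10.5%. The ETS motif CCGGAAG (10.7% of promoters), the TATA motif TATAAA (9.01%) and the longer NRF1 motif (1.28%) were likewise not matched in them. A match describes letters only.

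Peaks at the gene ends sorted the members in the same way. FAM3C had a gene-end peak in all 6 libraries, FPR1 in silenced replicate 2 only, and FAM3B, FAM3D, FPR2 and FPR3 in none. Among 20033 protein-coding genes, 58.0% had such a peak in all 6 libraries and 16.5% in none. The FPR1 peak (chromosome 19, 51751749 to 51751948) covered the start site with a height of 3 and a false discovery rate (FDR, as deposited) of 0.112.

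FAM3C, whose product is a secreted factor known for promoting the epithelial-mesenchymal transition, carried the tallest peak of the 6 windows. The gene spans chromosome 7, 121348878 to 121396396, and the peak lay over its start site at 121396308. Silenced replicates 1, 2 and 3 had heights of 41, 47 and 12, and control replicates 1, 2 and 3 had 42, 64 and 71. Silenced replicate 3 stood far below the other 5, and the groups overlapped, since silenced replicate 2 exceeded control replicate 1. The fold enrichment over background was 15.4, 16.9 and 6.91 in the silenced and 13.3, 17.9 and 20 in the control libraries. The peak reached from 125 to 132 bases inside the gene to 310 to 431 bases before the start in silenced libraries. In the control libraries it reached 356 to 454 bases before the start, so it covered the whole printed stretch in every library. In control replicate 1 a single interval of 1157 bp stood where silenced replicate 1 had separate peaks.

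Because heights are not scaled between libraries, each peak was also placed in its own list, as the percentile from the top by fold enrichment (a low value is a strong peak). The percentile depends on how many low peaks a list holds, so it is not fully comparable between libraries either. In control replicate 2, the shortest list, a fold enrichment of 5.21 elsewhere in the FAM3C window stood at 40.2%. One of 5.17 in the FAM3D window of silenced replicate 2 stood at 21.0%. The FAM3C start peak stood at 2.34%, 1.77% and 13.8% in the silenced and 3.74%, 2.14% and 0.540% in the control libraries. Silenced libraries averaged 5.97% ± 6.78 and control libraries 2.14% ± 1.60 (SD, n = 3 each). This difference did not exceed the spread between replicates (exact permutation test, two-sided, p = 0.6, adjusted p = 1 over 15504 genes with a gene-end peak in all 6 libraries). With 3 libraries against 3 this test cannot go below 0.1. The groups overlapped here, as they did for all but 6.55% of the genes tested. Without silenced replicate 3, the library of lowest background coverage, the difference (silenced minus control) went from 3.82 to −0.0864 percentage points; the part of that coverage in the result was not tested. Ranked among the 37284 regions called in all 6 libraries, with ranks of fold enrichment turned into normal scores, the start region had a score difference of −0.57 (SE 0.30, 95% interval −1.20 to 0.058, limma adjusted p = 0.963). The score difference was −0.18 with silenced replicate 3 left out, −0.34 with control replicate 3 omitted and −0.52 with control replicate 2 omitted. It was −0.74, −0.80 and −0.86 on dropping silenced replicate 1, silenced replicate 2 or control replicate 1 in turn. Ranks taken from height gave −0.53 (95% interval −0.92 to −0.15, limma unadjusted p = 0.00854). Ranks from the deposited p-value gave −0.58 (95% interval −1.03 to −0.13, limma unadjusted p = 0.0139). Neither passed the threshold of 0.05 (limma adjusted p = 0.971 and 0.974). Over the libraries the peak was on average nearer the top of its list than the strongest gene-end peak of 65.8% of the 11621 protein-coding genes with one in every library.

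The rest of the FAM3C window was sparse. Of 10 merged regions (peaks of the 6 lists joined where they overlapped by at least 1 bp), 2 were called in all 6 libraries and 6 in 1. The other region called in all 6 (chromosome 7, 121329302 to 121330280) lay 19.1 kb below the low end of FAM3C, inside WNT16, a gene for a secreted WNT ligand. Its heights were 5, 4 and 6 in the silenced and 5, 9 and 10 in the control libraries. It was low in every library, and the groups overlapped. The score difference was −0.21 (SE 0.48, limma adjusted p = 0.978), and it turned to 0.18 without silenced replicate 2 and 0.0226 without control replicate 3. In all, 5, 5 and 3 peaks lay in the FAM3C window in the silenced and 3, 3 and 5 in the control libraries (exact permutation p = 1).

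**Figure D2:**
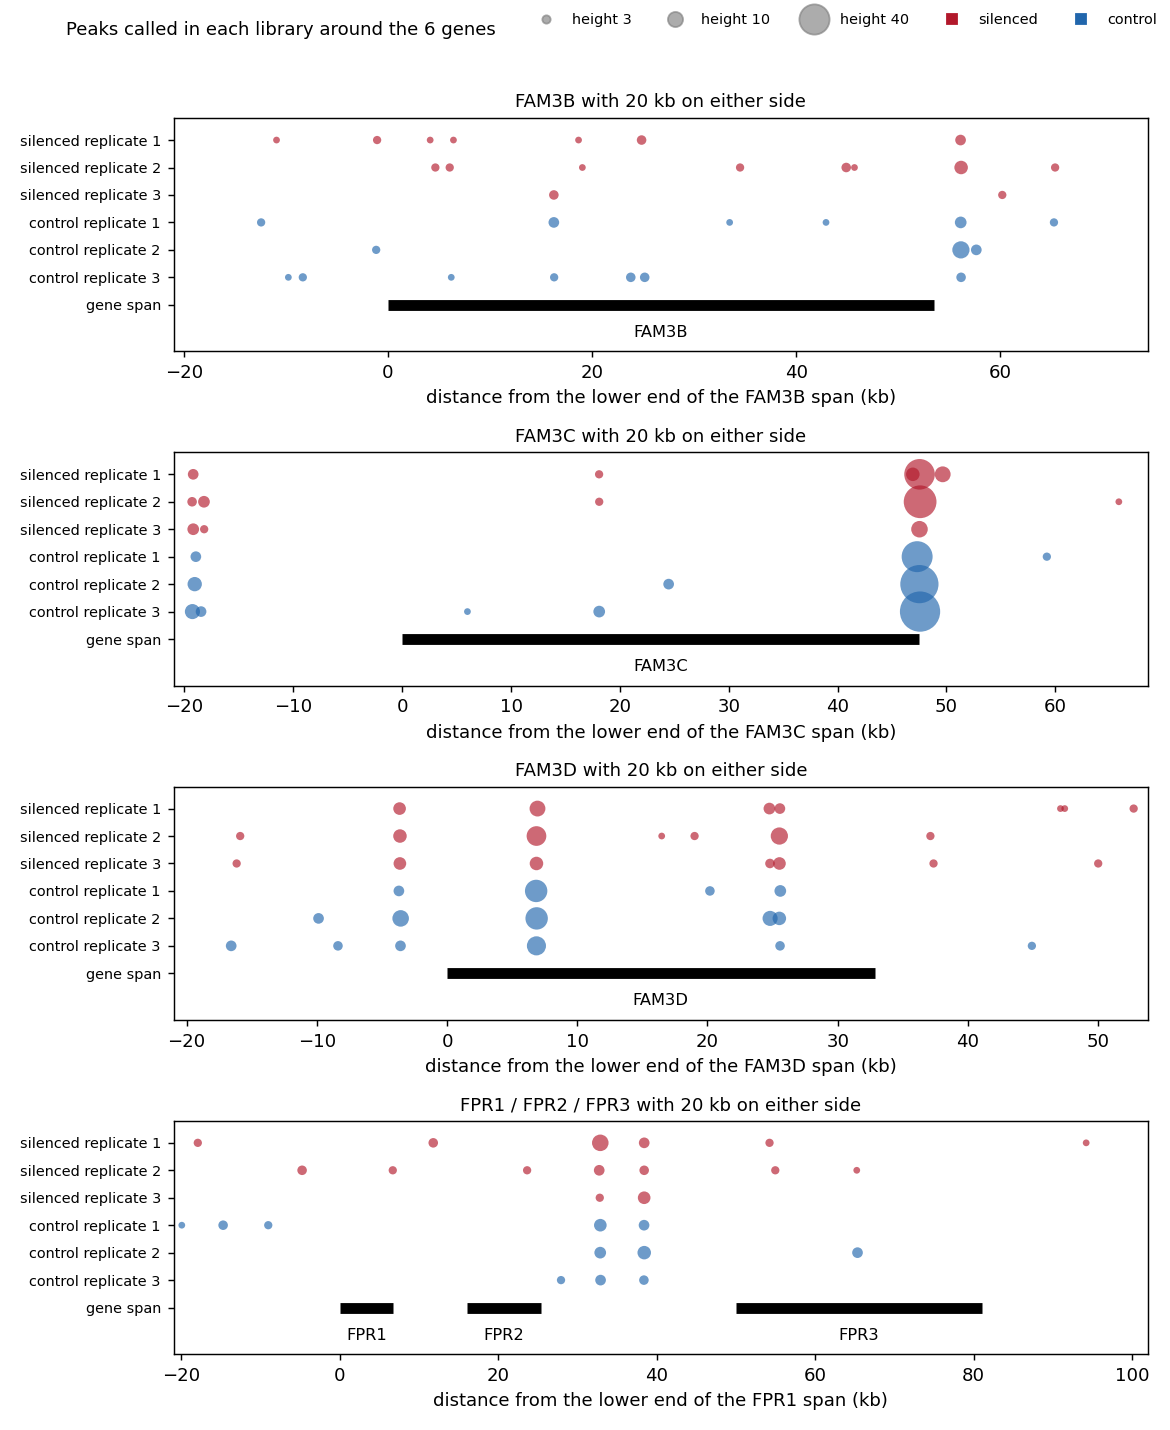
Each panel shows a gene window, with the distance from the lower end of the first gene's span in kb on the horizontal axis, a row per library, circles for peaks with an area in proportion to height, and black bars for gene spans. The FAM3C start peak (right end of its span) recurs in every library, FAM3D and the gap between FPR2 and FPR3 hold weaker recurring peaks, and FAM3B has 1 that is missing only in silenced replicate 3.

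FAM3D, the gut-expressed member described as an FPR ligand, had no peak at its start but 3 regions called in all 6 libraries. Its span is chromosome 3, 58633946 to 58666774, on the minus strand. Of the 19 merged regions in the window, 15 were called in 1 library. The strongest recurring region (58640623 to 58641120) lay in the gene body, 25.9 kb from the start site. Heights there were 11, 17 and 8 in silenced and 22, 22 and 16 in control replicates 1, 2 and 3. The silenced libraries were mostly lower, but silenced replicate 2 exceeded control replicate 3.

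In fold enrichment the body region did not overlap between groups, with 6.90, 9.47 and 5.11 in the silenced against 11.5, 11.4 and 9.66 in the control libraries. Its normal score was lower in silenced libraries (difference −0.65, SE 0.27, 95% interval −1.22 to −0.0857), with an unadjusted p of 0.0264 and a limma adjusted p of 0.963. Ranking by height in place of fold enrichment gave −0.37 (95% interval −0.85 to 0.10, limma unadjusted p = 0.117), and ranking by the deposited p-value gave −0.55 (limma unadjusted p = 0.0518). The region did not pass the threshold of 0.05, and the adjusted p ran from 0.759 to 0.998 over 12 alternative settings. All 3 silenced scores lay below all 3 control scores, as in 4.78% of the regions tested; 5.39% had them all above, and 10.2% did not overlap in either direction. No region of the genome passed (0 called by limma; 1746, or 4.68%, had an unadjusted p under 0.05). On simulated data of this size limma recovered 137 of 200 regions shifted by 2 units, with 2 false calls, and 0 of 200 shifted by 1. The simulated noise was independent in each library, so deviations of a whole library were not part of it.

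The other recurring FAM3D regions were weaker. The region at 58659326 to 58659672, 7.28 kb inside the gene from its start, had heights of 5, 13 and 7 in the silenced and 6, 8 and 4 in the control libraries. The one at 58630086 to 58630618 lay 3.59 kb beyond the low end of FAM3D, within the antisense lncRNA gene FAM3D-AS1, with heights of 7, 8 and 7 in the silenced and 5, 12 and 5 in the control libraries. Both overlapped between groups. Their limma score differences were 0.74 (SE 0.45) and 0.45 (SE 0.43), neither past the threshold (limma adjusted p = 0.963 and 0.965). The first was 1.19 without silenced replicate 1 and 0.44 without silenced replicate 2. The second was 0.81 when control replicate 2 was left out, and 0.28 or 0.27 when control replicate 1 or 3 was.

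FAM3D was the member whose peak number separated the groups. Its window held 7, 7 and 7 peaks in silenced and 4, 5 and 6 in control replicates 1, 2 and 3, or 7.0 ± 0.0 against 5.0 ± 1.0 (SD, n = 3). The exact permutation p was 0.1, the smallest this design allows, and the adjusted p was 1 over 37358 genes. The groups did not overlap for 1 of the 6 members, against 3.09% of all genes tested, with every silenced library above every control in 1.71% and below in 1.38%. The covered length in the window was 1878, 1751 and 1954 bp in the silenced and 982, 1542 and 1448 bp in the control libraries (exact permutation p = 0.1, adjusted p = 1). In this measure 6.23% of genes did not overlap, 1.79% with the silenced libraries above and 4.44% with them below.

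That separation rested on low peaks. Counting peaks with a height of at least 4 left 4, 3 and 4 in the silenced and 4, 5 and 5 in the control libraries, which turned the difference from 2.0 to −1.0. With an FDR under 0.05 it was −0.667, with an FDR of at most 1e-05 −0.667, and −0.333 with lists of equal size. Covered length also reversed at a height of at least 4, from 537 to −133 bp. Over all peaks that height limit removed 2.46% in control replicate 2 and 48.1% to 52.1% in the other libraries.

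**Figure D3:**
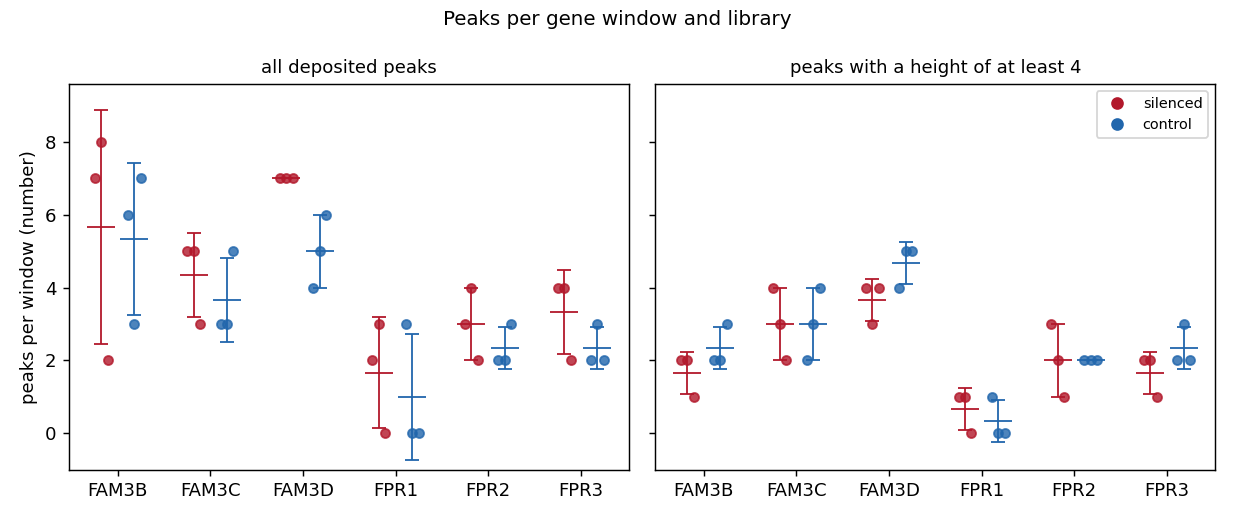
Points give the number of peaks in each gene window (vertical axis) per library for the 6 genes (horizontal axis), with all deposited peaks on the left and peaks with a height of at least 4 on the right; crossbars and whiskers are group means ± SD (n = 3). FAM3D has 7 peaks in every silenced library against 4 to 6 in controls on the left, and 3 or 4 against 4 or 5 on the right.

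FAM3B encodes the islet factor also called PANDER and spans chromosome 21, 41304242 to 41357727. It had no region called in all 6 libraries. Its most frequent region, called in 5, lay outside the gene (41360254 to 41360556), 2.68 kb beyond the high end and 1.47 kb before the span of MX2, an interferon-induced antiviral gene. Silenced replicates 1 and 2 had heights of 5 and 8 there, silenced replicate 3 had no peak, and the control libraries had heights of 6, 13 and 4. The heights overlapped between groups.

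Within the FAM3B window 17 of 23 merged regions were called in 1 library, 14 of these with a height of 2 or 3. The 7, 8 and 2 peaks of the silenced and 6, 3 and 7 peaks of the control libraries overlapped (exact permutation p = 1, adjusted p = 1). The lowest counts were those of silenced replicate 3 and control replicate 2, the libraries with the shortest lists. The mean difference of 0.333 peaks reversed without silenced replicate 1 (−0.333), without silenced replicate 2 (−0.833) and without control replicate 2 (−0.833). It also reversed at a height of at least 4 (−0.667) and with lists of equal size (−1.0).

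The 3 receptor genes stand in a row on chromosome 19, with FPR1 at 51745172 to 51751878, FPR2 at 51761180 to 51770531 and FPR3 at 51795157 to 51826190. Their windows overlap, and of 15 merged regions, 5 belonged to more than 1 window, so the values of the 3 genes are not independent. FPR1, the high-affinity receptor for formylated peptides, had the emptiest window. It held 2, 3 and 0 peaks in silenced and 3, 0 and 0 in control replicates 1, 2 and 3 (exact permutation p = 1). Its strongest region by fold enrichment (51756836 to 51757080), 5.08 kb past the gene, had a fold enrichment of 3.65 in silenced replicate 1. All 8 of its regions were called in 1 library, with heights of 2 to 4. A peak was thus present in the FPR1 window in 3 of 6 libraries, whereas the other 5 members had one in all 6, as did 90.9% of protein-coding genes and 81.4% of all genes.

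FPR2, a receptor for lipid and peptide mediators, and FPR3, the least studied of the 3, shared the only 2 regions of the cluster called in all 6 libraries. Both lay between the genes, 5.56 kb apart. The first (51777611 to 51778411), 7.48 kb past FPR2 and 17.1 kb before FPR3, had heights of 12, 5 and 3 in the silenced and 7, 6 and 5 in the control libraries. The second (51783426 to 51783725), at one end of the lncRNA gene LOC105372448, had heights of 5, 4 and 7 in the silenced and 5, 8 and 4 in the control libraries. The silenced values enclosed the control values at the first region, and the groups overlapped at the second. The limma score differences were 0.18 (SE 0.48) and 0.23 (SE 0.49), with limma adjusted p = 0.980 and 0.977.

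Library by library, different members of this pair were the stronger. The first region was ahead in height in silenced replicates 1 and 2 and in control replicates 1 and 3, and the second in silenced replicate 3 and control replicate 2. The first difference reversed without silenced replicate 1 (−0.389). The second reversed without silenced replicate 3 (−0.261) and without control replicate 3 (−0.0352). The FPR2 window held 3, 4 and 2 peaks in the silenced and 2, 2 and 3 in the control libraries (exact permutation p = 0.7), and the FPR3 window 4, 4 and 2 against 2, 3 and 2 (exact permutation p = 0.4). Adjusted p was 1 in both cases. In the FPR3 window the difference of 1.0 reversed to −0.667 at a height of at least 4.

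**Figure D4:**
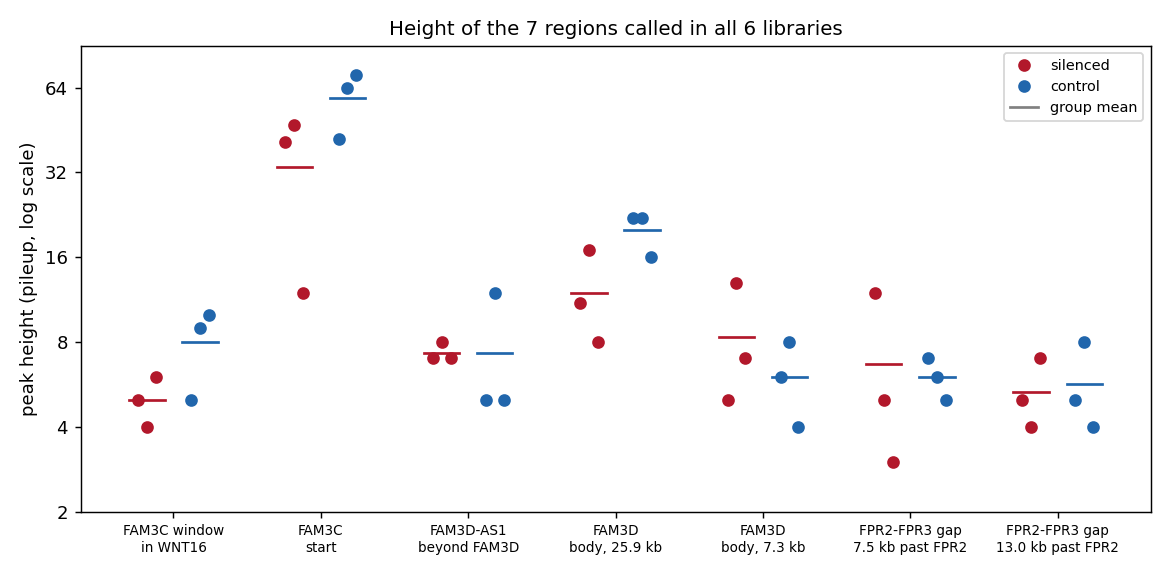
Points give the peak height (pileup, log scale, vertical axis) in each library for the 7 regions of the gene windows called in all 6 libraries (horizontal axis; kb for FAM3D are from its start site), and lines are group means. The FAM3C start region spans 12 to 71, the FAM3D body region 8 to 22, and the other 5 regions lie between 3 and 13.

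Over all windows 67 merged regions were found, of which 50 (74.6%) were called in 1 library and 7 (10.4%) in all 6. In the whole series 74.1% of 507440 regions were called in 1 library and 7.35% in all 6, so the windows lay near the general shares. Of the 50 single-library regions 37 had a height of 2 or 3. Of the 67, 0 were called in each silenced library and no control (0.130% of all regions) and 0 the other way round (0.200%). Among the 37284 regions called in all 6, the FAM3C start region exceeded 92.4% in median fold enrichment and the FAM3D body region 65.1%. The other 5 exceeded 8.16% to 13.1%.

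In density 5 of the 6 members stood below the median gene, and FAM3D near it. Peaks per 100 kb of window, averaged over the 6 libraries, were 2.85 for FPR1, 3.99 for FPR3, 4.57 for FAM3C, 5.40 for FPR2, 5.88 for FAM3B and 8.24 for FAM3D, against a median of 8.01 over protein-coding genes. Peak numbers were higher in silenced libraries on average for 6 of 6 members, with a median difference of 0.667, and for 48.2% of all genes, with a median of 0. Overlapping windows and low peaks enter that count, and at a height of at least 4 it held for FPR1 alone. For the strongest peak of a window in the full lists, 0 of the 5 members with one in all 6 libraries separated the groups. Among genes 6.18% did (1.36% with the silenced values above, 4.82% below), and the adjusted p was 1 for each member. For FAM3D the strongest peak stood at 13.995%, 9.02% and 20.04% in the silenced and 5.53%, 11.2% and 8.64% in the control libraries (exact permutation p = 0.2). The body region gave this peak except in silenced replicate 3. There the peak at 58659365 to 58659578 was stronger, and the body region stood at 22.1%. In control replicate 2, the shortest list, a fold enrichment of 11.4 stood at 11.2%, and one of 9.47 in silenced replicate 2 at 9.02%. The percentile difference of 5.91 points was 12.3 at an FDR under 0.05, 15.9 at a height of at least 4 and 10.3 with lists of equal size. Each of these 3 had an exact permutation p of 0.1, whereas ranking by height gave 3.43 (exact permutation p = 0.5). The share of all genes reaching 0.1 at these limits was not computed. A height of at least 4 removed 2.46% of the peaks of control replicate 2 and 48.1% to 52.1% in the other libraries. Equal size left the list of control replicate 2 whole. Percentiles depend on list length, and its part in these differences was not tested.

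Other genes of the same signalling route were examined for gene-end peaks. Of 41 such genes, 18 (43.9%) had one in all 6 libraries and 7 in none, beside 58.0% and 16.5% of all protein-coding genes. By library, 22, 26 and 24 had one in the silenced and 25, 25 and 25 in the control libraries (24.0 ± 2.0 against 25.0 ± 0.0, SD, n = 3; exact permutation p = 0.7), and 0 of the genes had a peak throughout one group and nowhere in the other, against 0.386% of all genes.

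The parts of the route are given side by side, and differences between them were not tested. Of 16 genes for G proteins and their effectors 11 had a peak in all 6 libraries, among them GNAI2 and GNAI3, which encode inhibitory G protein subunits, and ARRB2, which encodes an arrestin. Of the receptor ligands, ANXA1 and HEBP1 had one in all 6, SAA1 in 4, and SAA2 and CAMP in 1 each. Among 9 other leukocyte chemoattractant receptor genes 0 had a peak in all 6 libraries, and C5AR1, C5AR2 and CMKLR1 had none. Of 6 NADPH oxidase genes, which serve the oxidative burst, NCF1 and RAC2 had one in all 6 and CYBB in none. LIFR, a receptor reported to bind FAM3C, had no peak in any library, whereas FGFR1, FGFR2 and FGFR4 had one in all 6.

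Marker genes of cells known for these families were checked in the same way. Of 8 myeloid markers, SPI1 had a gene-end peak in all 6 libraries, CYBB, TYROBP and LYZ had none, and 2 to 3 were called per silenced library against 1 to 4 per control. Of 5 neutrophil markers 0 were called in all 6, with 0 to 2 per library. CDX2 alone of 5 intestinal markers, and PDX1 and NKX6-1 of 5 islet markers, were called in all 6, while INS and GCG were called in none.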

How the data were processed

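ATAC-seq peak lists of 6 NCI-H1703 libraries (3 silenced, 3 control, grouped by the treatment label) were analysed, 1 list per library. The submitters' processing notes name Trimmomatic 0.36, Bowtie2 2.2.6, Picard 2.8.2, MACS2 2.1.1, bedtools 2.25.0 and GRCh38, without roles or settings. Whether reads were shifted for the transposase offset is not given in the sources used here. Per the file headers, the authors deposited for each peak a fold enrichment (ratio), a p-value, an FDR and a pileup signal. They served for description, ranking and filtering inside each list; pileup is not scaled between libraries. Deposited p-values reached at most 0.00987 and no interval was shorter than 200 bp.

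Peaks on the autosomes, X and Y were joined to RefSeq spans (GRCh38.p14) with Python 3.11.15 and pandas 2.3.3. Values per library were compared by two-sided exact permutation over 20 regroupings for every gene, with Benjamini-Hochberg adjustment over all genes tested. Rank scores were fitted with limma 3.58.1 (R 4.3.3, trended eBayes, threshold 0.05). Both procedures were tested on simulated data. Promoter sequence was limited to the 250 bases before a start; FAM3B and FPR3 were not analysed there. Alternatives were FDR, height and list-size limits, midpoint overlap, flanks of 0 or 100 kb, other ranks, left-out libraries and pairing by replicate number. Same-numbered libraries did not deviate together (mean correlation −0.00263 over 37284 regions). Intervals cover the spread between libraries only.

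The members and lists were chosen with earlier results of these data known. Text names every member, regions called in all 6 libraries or in 1 group only, each window's strongest region, coding neighbours, and pathway genes called in 1 group only. The coding neighbours not described above were FAM107A (FAM3D window) and ZNF577 (FPR3 window). Other pathway and marker genes named, and the FAM3B region called in 5 libraries, were picked after their values were seen.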

Additional observations from a re-analysis of the deposited data

How the results depend on the processing

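The exact tests cannot give a p under 0.1 with 3 against 3 libraries, so only signs and sizes can be followed. Signs did change, and the cause was not tested. The height and list-size limits did not fall evenly on the libraries. A height of at least 4 removed 2.46% of the peaks of control replicate 2 and 48.1% to 52.1% of those in the other libraries. Lists of equal size kept all 91346 peaks of control replicate 2 and shortened the rest. Differences are silenced minus control. Peaks per window, 0.333 for FAM3B, 0.667 for FAM3C, 2.0 for FAM3D and 1.0 for FPR3 in the full lists, reversed to −0.333, −0.333 and −0.667 (FAM3B, FAM3C, FAM3D) at an FDR of at most 1e-05. They reversed to −0.333, −0.667 and −0.333 (FAM3B, FAM3D, FPR3) at an FDR under 0.05, to −0.667, −1.0 and −0.667 at a height of at least 4, and to −1.0, −0.333 and −0.333 with lists of equal size. Covered length was −82.3, −389, 537, 73.0, 121 and 255 bp for FAM3B, FAM3C, FAM3D, FPR1, FPR2 and FPR3. For FAM3D it reversed to −240, −66.0 and −133 bp under the first 3 of these limits. For FPR3 it reversed to −93.7, −176 and −93.7 under the last 3 of them, and for FPR2 to −28.0 at a height of at least 4. For FAM3C it grew to −555, −555 and −488 bp under the last 3, each with an exact permutation p of 0.1. At a height of at least 4 the FAM3C lengths were 1110, 1013 and 871 bp in the silenced and 1859, 1241 and 1559 bp in the control libraries. The share of all genes separated at these limits was not computed. FAM3B changed to 195 bp without a flank and, with 100 kb, FAM3B, FAM3C, FPR1 and FPR2 to 577, 165, −301 and −333 bp. The percentile of the strongest FAM3B peak, −0.375 points, reversed to 0.629 at an FDR under 0.05, 8.84 at a height of at least 4 and 0.926 with 100 kb.

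Leaving out 1 library at a time gave ranges of −0.833 to 2.17 peaks for FAM3B, −396 to 317 bp for FAM3B, −65.2 to 349 bp for FPR1 and −66.5 to 303 bp for FPR2. Percentiles ran from −4.04 to 3.72 points for FAM3B and −0.0864 to 5.92 for the FAM3C start peak. Score differences ran from −0.65 to 0.18 for the region in WNT16, −0.39 to 0.52 for the first FPR region and −0.26 to 0.62 for the second. The number of member regions found in every silenced library and no control was 0, beside 662 in the whole series. Without silenced replicate 1 it was 1, beside 3553 in the whole series, because fewer silenced libraries had to call a region. That region lay in WNT16 (chromosome 7, 121330567 to 121330793). The limma count was 0 under each of 13 alternatives, with 854 to 2379 regions at an unadjusted p under 0.05. Pairing by number (replicate block) leaves mean differences as they are by construction, for example 2.0 peaks for FAM3D. The exact sign-flip p there was 0.25, the smallest 3 pairs allow, so that test could not give a call. With the replicate block limma called 0 regions. Of 385 recomputed values, which hold counts of regions as well as differences, 46 reversed sign and 45 were 0. The zeros include 13 limma call counts, 11 control-only and 10 silenced-only region counts, and such counts cannot change sign. The FAM3D body region had no value at an FDR of at most 1e-05, because it was not called in all 6 libraries there.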

Other observations

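The protein-coding genes whose strongest gene-end peaks (by fold enrichment) stood nearest to that of FAM3C over the 6 libraries were MLLT1, PDS5B and TRIM68. Their percentiles differed from those of FAM3C by a root mean square of 0.708, 0.736 and 0.821 percentage points, among 11620 genes compared. In MLLT1 the percentiles were 1.39%, 1.81% and 13.6% in silenced and 3.48%, 2.97% and 1.70% in control replicates 1, 2 and 3. PDS5B and TRIM68 stood at 14.6% and 13.7% in silenced replicate 3 and at no more than 3.33% elsewhere. These genes were picked for nearness to FAM3C over the same 6 percentiles, so their likeness to it was fixed by that choice. The 6 points of each gene share the libraries and their depths, and the likeness is a description.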
